A study of Mus musculus with 42 samples.

Results

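Late 2-cell mouse embryos grown with FK866 were compared with untreated embryos of the same stage across all genes that either group expressed. FK866 inhibits NAMPT, the enzyme that sets the pace at which cells recover NAD+ from nicotinamide. Embryos came from ICR mice. FK866 was used at 0.01 µM, the controls received the vehicle DMSO at 0.05%, and both groups were collected 48 h after hCG, the hormone given to trigger ovulation. The labels name the controls wild type and give no other allele for the FK866 embryos. Each library was made from 3 pooled embryos and each group had 2 libraries, so the values are means over few embryos and say nothing of single blastomeres. These 4 libraries are part of 18 RNA-seq libraries in 9 groups, within a series of 42 samples.

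Expression was given as FPKM, read counts scaled by exon length and library size, in a column that added both libraries of a group; all levels here are per library. Genes entered the comparison at 1 FPKM or more per library in either column, which kept 9022 of the 15737 genes listed, and 5311 of these reached 5 FPKM. The listed genes lie on chromosomes 1 to 11, so Nampt, which lies elsewhere, was not analysed here. Because FPKM steps are whole reads, the columns could be taken apart into a larger and a smaller library for 8604 of the 9022 genes, and for 5055 of the 5311. The control libraries held 6523488 and 4164896 reads and the FK866 libraries 8963343 and 8129784. Fold changes are given as log2 of FPKM + 1, FK866 over control, which understates the change of genes with low values.

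The mouse embryo starts its own transcription in 2 waves. The first, minor wave begins soon after fertilisation and includes genes such as the Zscan4 family. The second, major wave comes at the late 2-cell stage and brings up much of the housekeeping machinery, while RNA stored by the oocyte is broken down. NAD+ is the electron carrier of glycolysis and the citric acid cycle, and also the substrate that sirtuins such as Sirt1 use to remove acetyl groups from histones. The stage of the libraries was checked on gene lists. Of 46 genes of the 2-cell programme listed, 45 were expressed, and of 54 oocyte and maternal genes, 52. Of 6 cumulus and granulosa cell markers only Tnfaip6 was expressed, with 5.34 FPKM in the smaller control library and 0 in the other libraries, and Star and Cyp11a1 were at 0 in all 4. Haemoglobin RNA was present, with Hba-a1 at 20.4 and 19.5 FPKM in the control libraries and 22.3 and 10.5 in the FK866 libraries. The median over all expressed genes was 5.15 FPKM in the control column and 4.97 in the FK866 column. Of 5 blastocyst markers listed, 2 were expressed, while the trophectoderm factor Cdx2 was listed at 0. The 2 expressed markers summed to 64.8 and 32.2 FPKM in the control libraries and 35.0 and 28.8 in the FK866 libraries.

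Across the 9022 genes the median log2 fold change was -0.06. By column, 1636 genes (18.1%) exceeded the control more than 2-fold with FK866, and 1800 (20.0%) lay more than 2-fold under it. Of the 8604 separated genes, 334 (3.88%) had both FK866 libraries at least 2-fold above both control libraries and 368 (4.28%) at least 2-fold below, a rule called 2-fold apart here. Without the 2-fold margin, both FK866 libraries lay above both control libraries for 1422 genes (16.5%) and below for 1744 (20.3%).

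Replicates differed almost as much as the groups did over all separated genes, and somewhat less so at 5 FPKM or more. The control libraries were more than 2-fold apart from each other in 39.0% of the separated genes and the FK866 libraries in 37.9%, against 41.0% to 44.5% for an FK866 library set beside a control library. At 5 FPKM or more these shares were 32.0% and 31.9%, against 35.7% to 41.2%. No gene passed limma's moderated test at an adjusted p of 0.05 over 8604 genes. At an unadjusted p under 0.05, 284 genes were higher (3.30%) and 398 lower (4.63%). The same test weighted by read depth (voom) called 0 genes as well, with 379 higher and 432 lower at an unadjusted p under 0.05. The smallest adjusted p was 0.0684, shared by 4 genes: the small pseudogene Klk1b28-ps and the processed pseudogene Gm9701, both higher with FK866, and the small RNA genes Mir7659 and Gm24045, both lower. Genes are therefore described below as higher or lower, with the values of each library, and not as changed. The paper calls the 2 libraries of a group biological replicates. Nothing in the sources says that they came from separate litters or cultures, so the p-values measure the spread between these libraries.

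**Figure D1:**
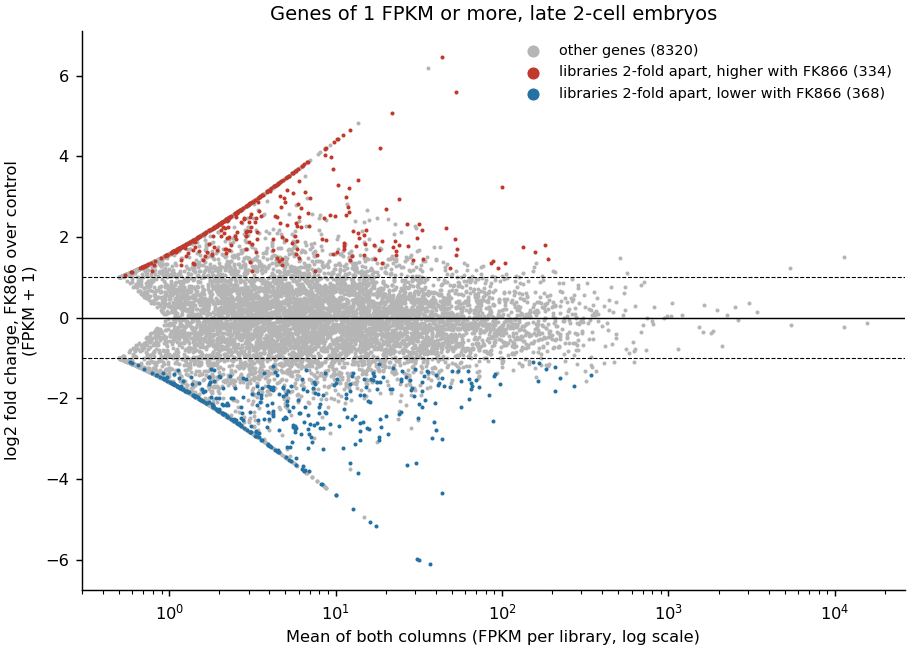
Each point is 1 of the 9022 genes, placed by its mean level in both columns (FPKM per library, log scale) and its log2 fold change of FK866 over control; dashed lines mark 2-fold. The 334 genes with libraries 2-fold apart and higher are red, the 368 lower are blue, and the rising and falling edges of points are genes at or near 0 in one column.

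Part of both sets had no read in one group. Of the 334 genes 2-fold apart and higher, 161 had no read in either control library, and of the 368 lower, 105 had no read in either FK866 library. At 5 FPKM or more, 722 genes (13.6%) were more than 2-fold higher and 893 (16.8%) lower by column, and 189 (3.74%) were 2-fold apart and higher against 252 (4.99%) lower. Even there, 11.2% of genes had no read in one control library or in both, and 10.6% had none in one FK866 library or in both. Among the most abundant genes, with a mean of 100 FPKM or more, 5 of 390 were 2-fold apart and higher and 9 were lower, and both FK866 libraries lay below both control libraries for 151 against 70 above.

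Which genes stood highest with FK866 is described by function, for the first 20 by fold change of 131 genes that were 2-fold apart at 5 FPKM or more and whose symbol is not that of a predicted gene, clone or pseudogene. Several belong to mitochondria and to metal or thiol chemistry. Mt4, a metallothionein of stratified epithelia, measured 0 and 0.60 FPKM in the control libraries and 60.0 and 26.3 in the FK866 libraries, a log2 difference of 5.01 ± 0.75 (limma SE, adjusted p = 0.290). Bola1, a mitochondrial protein that works with iron-sulfur clusters, had no read in the controls and 23.0 and 25.6 FPKM with FK866, at least 93.6-fold higher when the floor is set at 3 reads over both control libraries. Chac2, an enzyme that breaks down glutathione, had no control read and 26.9 and 14.3 FPKM with FK866, at least 96.5-fold higher by the same floor. Cox6a2, the heart and muscle form of a cytochrome c oxidase subunit, was likewise at 0 in both controls and at 26.4 and 7.96 FPKM with FK866. Efhd1, a calcium-binding protein of mitochondria, measured 0 and 0.23 FPKM against 3.78 and 30.7, a wide gap between the FK866 libraries themselves. Such floors and bounds cover counting error only, since reads amplified by PCR are not independent molecules.

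Other genes of the first 20 serve membranes, the cytoskeleton and signalling. Vps33b, a tether of late endosomes, was at 0 in both controls and at 11.7 and 8.43 FPKM with FK866, which is at least 124-fold higher. Actr3b, an actin-related protein of the Arp2/3 type, was at 0 against 10.3 and 10.7 FPKM. Arl6ip1, which shapes the endoplasmic reticulum, measured 0.06 and 3.0 FPKM in the controls and 25.3 and 19.9 with FK866. Pigc, an enzyme of the GPI anchor pathway, was at 0 against 3.54 and 13.6 FPKM. Areg, a ligand of the EGF receptor, was at 0 in both controls and at 6.24 and 11.2 FPKM with FK866. Serpinb3a, an intracellular protease inhibitor, was measured in all 4 libraries, at 1.22 and 1.03 FPKM in the controls and 21.5 and 17.9 with FK866. Slc51b, a subunit of an organic solute and bile acid carrier, Mrgprb13, a receptor-type gene annotated as an unprocessed pseudogene, the sulfotransferase Sult1d1 and the calcium-binding S100a11 had no control read; their FK866 libraries ranged from 1.09 FPKM for S100a11 to 16.1 for the same gene. Dppa1, named for its expression in early embryos, had 7.37 and 15.4 FPKM with FK866, the zinc finger gene Zfp982 had 21.7 and 17.3, and the J-domain gene Dnajc5b had 20.6 and 1.56, all against 0 in the controls. Pard3bos2, at 8.11 and 9.90 FPKM against 0, runs antisense to Pard3b, and reads without strand cannot tell the genes apart.

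The 20 genes that stood lowest, of 173 chosen in the same way, include enzymes of metabolism, RNA factors and regulators. Bckdhb, the E1 beta subunit of the complex that breaks down branched-chain amino acids, measured 19.6 and 20.8 FPKM in the controls, close agreement between libraries, and had no read in either FK866 library, at least 208-fold lower by a floor of 3 reads over both FK866 libraries. Pop7, a protein of RNase P and RNase MRP, which trim transfer and ribosomal RNA, was abundant in the controls, at 59.0 and 109 FPKM, against 4.03 and 2.39 with FK866. Its log2 difference was -4.30 ± 0.55 (limma SE, adjusted p = 0.165). Snhg6, a host transcript of a small nucleolar RNA, had 16.6 and 30.4 FPKM against 2.04 and 0. Dtd1, which strips D-amino acids from transfer RNA, had 11.9 and 3.88 FPKM against 0, and Arl6ip4, linked to splicing, had 13.7 and 2.33 against 0.

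Among regulators, Utf1, a chromatin factor of pluripotent cells, measured 16.9 and 4.70 FPKM in the controls and 0 with FK866. Xpa, which recognises damaged DNA in nucleotide excision repair, had 13.9 and 9.13 FPKM against 0.18 and 0.06. Cdk19, a kinase of the Mediator complex, had 17.5 and 2.59 FPKM against 0.38 and 0, with a wider gap between the controls than Xpa. The kinase gene Stk33 had 5.72 and 20.4 FPKM against 0.04 and 0. Proteins of the lysosome, the membrane system or the outside of the cell made up most of the rest. Galns, a lysosomal sulfatase, had 8.73 and 12.0 FPKM against 0 and 0.46. Tor3a, of the torsin ATPases of the endoplasmic reticulum, had 8.94 and 22.9 against 0.75 and 0.79. C1qtnf4, a secreted protein with C1q domains, had 12.1 and 11.2 against 0. Serping1, the inhibitor of complement C1, the protease Prss56, the small GTPase Rab19 and Lrcol1 had no read with FK866 and between 3.69 and 21.4 FPKM in the control libraries. Tmem150a (1.68 and 23.7 FPKM against 0 and 0.16) and Gtsf1l (2.42 and 25.1 against 0.14 and 0) had the control pairs widest by ratio of the 20. Kbtbd8os, at 10.0 and 5.62 FPKM against 0, lies antisense to Kbtbd8.

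**Figure D2:**
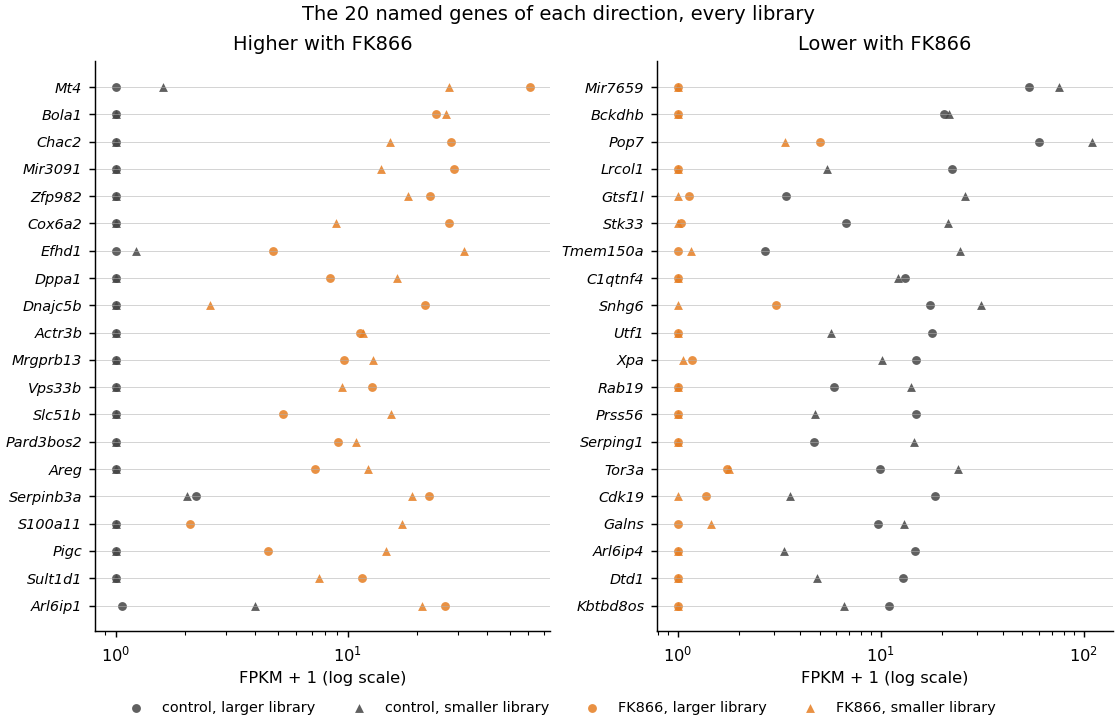
Values of the 20 genes highest and the 20 lowest with FK866, as FPKM + 1 on a log scale, 1 point per library (circles the larger, triangles the smaller library of a group). Control points are grey and FK866 points orange; the genes were chosen to have groups at least 2-fold apart, and a point at 1 means no read.

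A miRNA locus appears at each end. The mature sequences are shown because the locus, and not the mature RNA, was measured; they are from RefSeq on GRCm38.p6, with the seed, bases 2 to 8, in capitals.
mmu-miR-7659-5p: aGGAGCCGgcuccagauuccug
mmu-miR-7659-3p: aGGAGUCAgcuugucgguucaug
mmu-miR-3091-5p: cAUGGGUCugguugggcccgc
mmu-miR-3091-3p: cGGGCCUGaccagucucaagac
No seed is shared among the 4. Mir7659 lies on the minus strand of chr10:78340150-78340207, inside Agpat3, and drew 20 and 18 reads in the control libraries and 0 with FK866 (52.9 and 74.5 FPKM against 0). Its 58 bases make each read weigh heavily, the fold is at least 21.1 by the floor of 3 reads, and the adjusted p was 0.0684. Agpat3 itself was at 1.16 and 0.31 FPKM in the controls and 2.95 and 0.02 with FK866. Mir3091 lies on the plus strand within Rps21 and had 0 reads in the controls against 19 and 8 with FK866, while Rps21 differed in the other direction, at 356 and 329 FPKM against 241 and 223. RNA-seq of this kind captures mature miRNAs poorly, and reads from the host transcript cannot be told apart from those of the hairpin.

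Genes for cytosolic ribosomal proteins, the shared core of every ribosome, stood lower as a list without large differences in most members. Of 54 expressed, none was more than 2-fold higher with FK866, against 18.1% of all genes, and 10 (18.5%) were more than 2-fold lower, near the 20.0% of all genes. The median log2 fold change was -0.47, against -0.06 for all genes, and it lay between -0.67 and -0.45 for the 4 pairs of an FK866 with a control library, and between -0.64 and -0.47 as each library was left out. Both FK866 libraries lay below both controls for 31 of the 51 separated genes (60.8%) and above for 3 (Rps27a, Rpl7 and Rpl13a). The share below was 20.3% of all separated genes and 38.7% of those with a mean of 100 FPKM or more, a level many of these genes reach. Summed over those 51 genes, the level was 11095 and 10740 FPKM in the control libraries and 7286 and 8010 in the FK866 libraries, with no overlap. Sums over all separated genes did not overlap either. They were 197546 and 199650 FPKM in the control libraries and 178222 and 181339 in the FK866 libraries.

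Rps15, Rpl5, Rpl41 and Rpl28 were among those with libraries 2-fold apart. Rps15, of the small subunit, measured 303 and 344 FPKM in the controls and 88.4 and 92.7 with FK866, a log2 difference of -1.82 ± 0.27 (limma SE, adjusted p = 0.290). Rpl41, the smallest protein of the large subunit, measured 367 and 459 FPKM against 123 and 132 (-1.68 ± 0.26, adjusted p = 0.323). Rpl28 measured 105 and 91.6 FPKM against 30.7 and 32.4. In these 3 genes the libraries of a group lay close together, while the gap between the groups follows from the 2-fold apart rule that chose them. Rpl5, which carries 5S RNA to the ribosome, measured 45.8 and 58.4 FPKM against 18.4 and 9.88. Rps26 (301 and 225 FPKM against 121 and 106) and Rpl12 (229 and 229 against 108 and 118) were also more than 2-fold lower by column. The most abundant member, Rplp1 of the ribosomal stalk, measured 2028 and 2032 FPKM in the controls and 1394 and 1744 with FK866. Not all were lower: Rps27l measured 1177 and 872 FPKM against 986 and 1110, and Rps12 241 and 391 against 281 and 308.

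**Figure D3:**
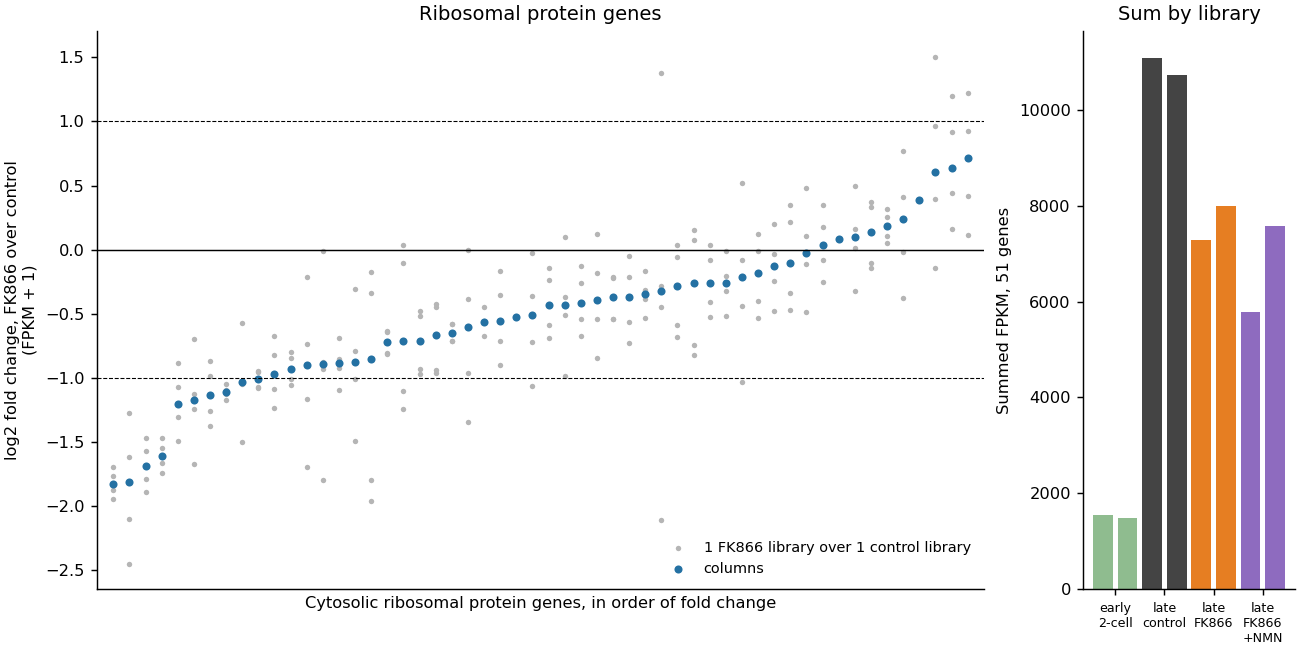
Left, log2 fold change of FK866 over control for the 54 ribosomal protein genes in order of fold change, columns in blue and the 4 library pairs in grey (3 genes that could not be separated have no grey points); 10 blue points lie below -1 and none above 1. Right, summed FPKM of 51 genes in every library: the FK866 libraries reach 7286 and 8010, below both controls at 11095 and 10740.

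These genes were far higher in late than in early controls. The same 51 genes summed to 1552 and 1477 FPKM in early 2-cell embryos, collected 34 h after hCG, so the FK866 libraries stood above the early stage and below the late controls. Embryos given 10 µM NMN, a precursor of NAD+, beside FK866 had 5782 and 7577 FPKM, libraries that were below the controls and overlapped those with FK866 alone. Ribosomal protein genes have many processed pseudogenes, and reads can be shared between them. Of 77 expressed pseudogenes with a ribosomal protein name, a list added after their values were seen, 3 (3.90%) were more than 2-fold higher. The 16 that were lower (20.8%) stood against 20.0% of all genes and 11.9% of those at a mean of 20 to 100 FPKM. The pseudogenes had a median level of 44.1 FPKM in the control column and a median log2 fold change of -0.36. Rps19-ps7 was higher, with 34.6 and 2.19 FPKM in the controls and 268 and 94.9 with FK866.

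Promoters of ribosomal protein genes are known for a run of pyrimidines at the start of transcription, called the TOP motif. The 60 bases around the RefSeq start, 40 before it and 20 from it on, are shown for the genes 2-fold apart that have an entry (GRCm38.p6), with CTTTC, a fragment of that motif, in capitals.
Rps15, chr10:80292391-80292450, plus strand: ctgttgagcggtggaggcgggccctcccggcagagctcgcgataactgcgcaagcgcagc
Rpl5, chr5:107900488-107900547, plus strand: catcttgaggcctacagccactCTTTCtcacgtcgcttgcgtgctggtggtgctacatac
Rpl41, chr10:128549149-128549208, minus strand: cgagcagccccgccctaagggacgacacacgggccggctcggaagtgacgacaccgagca
Rpl28, chr7:4792925-4792984, plus strand: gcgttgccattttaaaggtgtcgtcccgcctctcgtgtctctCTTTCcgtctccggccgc
CTTTC stands in this window, on the strand of the gene, for 16 of the 39 expressed ribosomal protein genes with an entry (41.0%), against 8.23% of 6026 expressed genes and 9.42% of all 27025 genes with one. On either strand the shares were 43.6%, 15.0% and 17.0%. Of the ribosomal protein genes more than 2-fold lower, 6 had an entry and 4 of those held the letters. The match describes the letters only, anywhere in the window, and not a run at the start of transcription. In Rpl5 the letters lie before the RefSeq start and in Rpl28 after it. The Rps15 window ends at base 80292450, before the start of that gene at 80292453 in the annotation used for exon lengths.

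Other machinery for making and removing proteins also had medians below 0, which rested more on single libraries, and the shares more than 2-fold lower were not all above the 20.0% of all genes. Of 37 expressed mitochondrial ribosomal protein genes, 2 were more than 2-fold higher and 6 (16.2%) lower, with a median of -0.47 (-0.70 to -0.23 over the library pairs, but 0.06 without the smaller control library). Mrps24 was 2-fold apart, at 48.5 and 53.6 FPKM in the controls and 20.3 and 19.6 with FK866. Of 22 proteasome genes, which encode the complex that degrades tagged proteins, none was more than 2-fold higher and 6 (27.3%) were lower, with a median of -0.50 (-0.59 to -0.41, but -0.06 without the smaller control library). Psmb10, a catalytic subunit of the immunoproteasome, measured 36.9 and 27.7 FPKM against 4.19 and 5.56. Psmc4, an ATPase of the cap, measured 20.1 and 30.4 against 0.98 and 4.55, and the assembly chaperone Psmg3 3.97 and 3.32 against 0.04 and 0. All 3 had libraries 2-fold apart, but Psma1 (15.7 and 17.2 FPKM against 27.0 and 23.4), Psma4 and Psme4 lay above both controls. Of 40 genes for heat shock proteins and chaperonins, 6 (15.0%) were more than 2-fold higher and 8 (20.0%) lower, with a median of -0.37 (-0.57 to -0.27 as each library was left out), and Hspb11, an intraflagellar transport protein despite its name, was at 0 in both controls and at 6.14 and 6.12 FPKM with FK866.

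Translation factors as a list had a median close to that of all genes, at -0.10 (-0.25 without the larger control library). Of 37, 2 (5.41%) were more than 2-fold higher and 4 (10.8%) lower, against 18.1% and 20.0% of all genes. Within it Eif3g, a subunit of the complex that recruits the small ribosomal subunit, measured 80.1 and 55.8 FPKM in the controls and 10.4 and 5.08 with FK866, a log2 difference of -3.03 ± 0.52 (limma SE, adjusted p = 0.385). Eif6, needed to build the large ribosomal subunit, measured 126 and 138 FPKM against 42.3 and 56.3. Among 50 genes of the spliceosome and SR proteins, 2 were more than 2-fold higher and 14 (28.0%) lower, with a median of -0.31 (-0.07 without the smaller FK866 library). The core protein Snrpf measured 19.1 and 25.9 FPKM against 8.55 and 5.71, while the splicing regulator Srsf9 was higher with FK866, at 15.9 and 14.7 against 38.7 and 47.2. Among 61 genes for RNA polymerases and general transcription factors, 3 were more than 2-fold higher and 11 (18.0%, against 20.0% of all genes) lower, with a median of -0.32 (-0.51 to -0.17 as each library was left out). Gtf2h1, a subunit of TFIIH, measured 109 and 93.5 FPKM against 20.6 and 37.6, and the Mediator subunit Med17 14.1 and 10.7 against 1.56 and 3.81.

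Energy metabolism showed no common direction. Of 20 glycolysis and glucose or lactate transport genes, 1 (5%) was more than 2-fold higher and 8 (40%) lower, against 18.1% and 20.0% of all genes. Their median of -0.77 ran from -0.97 to -0.03 over the library pairs and was -0.23 without the smaller control library. Pkm, the last kinase of glycolysis, measured 33.5 and 20.8 FPKM in the controls and 11.5 and 13.6 with FK866. Gapdh, which reduces NAD+, measured 12.3 and 13.0 against 6.53 and 6.99, and the glucose carrier Slc2a1 6.95 and 12.3 against 2.90 and 4.21. The dominant lactate dehydrogenase of these embryos, Ldhb, was not separable and measured 938 FPKM per library in the control column and 935 in the FK866 column. Slc2a9, a urate and sugar carrier, was the exception, at 0 against 1.40 and 3.85 FPKM. Of 16 citric acid cycle genes 1 was more than 2-fold higher (Dlat, 3.61 and 1.47 FPKM against 4.52 and 10.3) and none was lower, with a median of 0.15 that ranged from 0.01 to 0.77 as each library was left out. Of 46 subunits of oxidative phosphorylation, 4 (8.70%) were higher and 9 (19.6%) lower, with Uqcrc1 of complex III at 6.60 and 6.62 FPKM against 0 and Cox6a2 at the other end.

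Genes that make or use NAD+ were mostly within the spread of the libraries. Of 10 synthesis genes listed, 4 were expressed. Nmnat1, which forms NAD+ in the nucleus, measured 15.1 and 33.8 FPKM in the controls and 9.33 and 11.7 with FK866, below both controls without reaching 2-fold apart. Nadk, which makes NADP+, measured 34.7 and 57.1 against 32.6 and 65.6, and the mitochondrial NAD+ carrier Slc25a51 18.7 and 20.5 against 6.42 and 29.0. Of 11 expressed consumers none was more than 2-fold higher and 2 (18.2%) were lower, near the 20.0% of all genes. Sirt1 measured 86.6 and 66.2 FPKM in the controls and 79.3 and 55.1 with FK866, overlapping groups, with a log2 difference of -0.19 ± 0.37 (limma SE, adjusted p = 0.863). The mono-ADP-ribosyltransferase gene Parp12, the most abundant of the list, measured 141 and 250 FPKM against 229 and 192. Naxe, which repairs damaged NAD(P)H hydrates and was not on the list, measured 39.7 and 94.7 FPKM against 4.18 and 16.7. Naxe was picked after its values were seen.

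Oocyte and maternal genes leaned the other way. Of 52 expressed, 12 (23.1%) were more than 2-fold higher with FK866 and 6 (11.5%) lower, against 18.1% and 20.0% of all genes, with a median of 0.25 (0.12 to 0.49 over the library pairs, and 0.13 to 0.50 as each library was left out). Both FK866 libraries lay above both controls for 18 of 46 separated genes (39.1%) and below for 8 (17.4%), against 16.5% and 20.3% of all. Kit, the receptor of the oocyte for stem cell factor, measured 0.76 and 0 FPKM in the controls and 11.0 and 10.4 with FK866. Astl, the protease ovastacin that hardens the zona pellucida, measured 6.83 and 14.4 against 32.1 and 38.8. Nlrp4e, of a family of oocyte NOD-like proteins, measured 57.0 and 38.2 against 125 and 122, and its relative Nlrp4c 0 against 2.20 and 3.71. In the other direction stood Mos, the kinase that holds the egg in metaphase, at 5.08 and 7.13 FPKM against 0, and Zar1l at 52.8 and 36.5 against 8.23 and 16.2. Zp3, of the zona pellucida, measured 66.2 and 43.7 FPKM against 27.6 and 3.72. Dppa3, or Stella, was among the most abundant at 2069 and 2048 FPKM against 1742 and 1519. The linker histone of the oocyte, H1f8, measured 481 FPKM per library in the control column and 161 in the FK866 column, and could not be separated.

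Genes of the 2-cell programme had a median of -0.08 (0.20 without the larger control library). Of 45, 4 (8.89%) were more than 2-fold higher and 1 (2.22%) lower, against 18.1% and 20.0% of all genes. The list had a median level of 44.5 FPKM in the control column. At a mean of 20 to 100 FPKM, 6.52% of all genes were higher and 11.9% lower. Both FK866 libraries lay above both controls for 12 of 42 separated genes (28.6%) and below for 7 (16.7%). The shares over all separated genes were 16.5% and 20.3%. The only member 2-fold apart was Zfp353-ps, at 0 and 0.44 FPKM against 9.87 and 10.1. Zscan4c, the family member most used as a marker, measured 126 and 47.7 FPKM in the controls and 49.4 and 62.6 with FK866, overlapping groups. Zscan4d measured 147 and 104 FPKM against 75.3 and 148, and Zscan4f 137 and 79.3 against 97.3 and 103. Obox6, a homeobox gene, measured 185 and 145 FPKM against 353 and 249, while its relative Obox8 measured 216 and 275 against 152 and 223. Rfpl4b measured 54.4 and 34.6 FPKM against 125 and 93.8. Duxf3, or Dux, an inducer of this programme, measured 0.59 FPKM in the control column and 2.12 in the FK866 column and could not be separated, so the difference has no replicate check. Of 21 repressors of these genes, 5 (23.8%) were more than 2-fold higher and 2 (9.52%) lower. The DNA methyltransferase Dnmt3b measured 0 and 1.65 FPKM against 5.35 and 4.55. Trim28, a corepressor of transposons, measured 25.4 and 18.7 against 13.8 and 5.09.

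**Figure D4:**
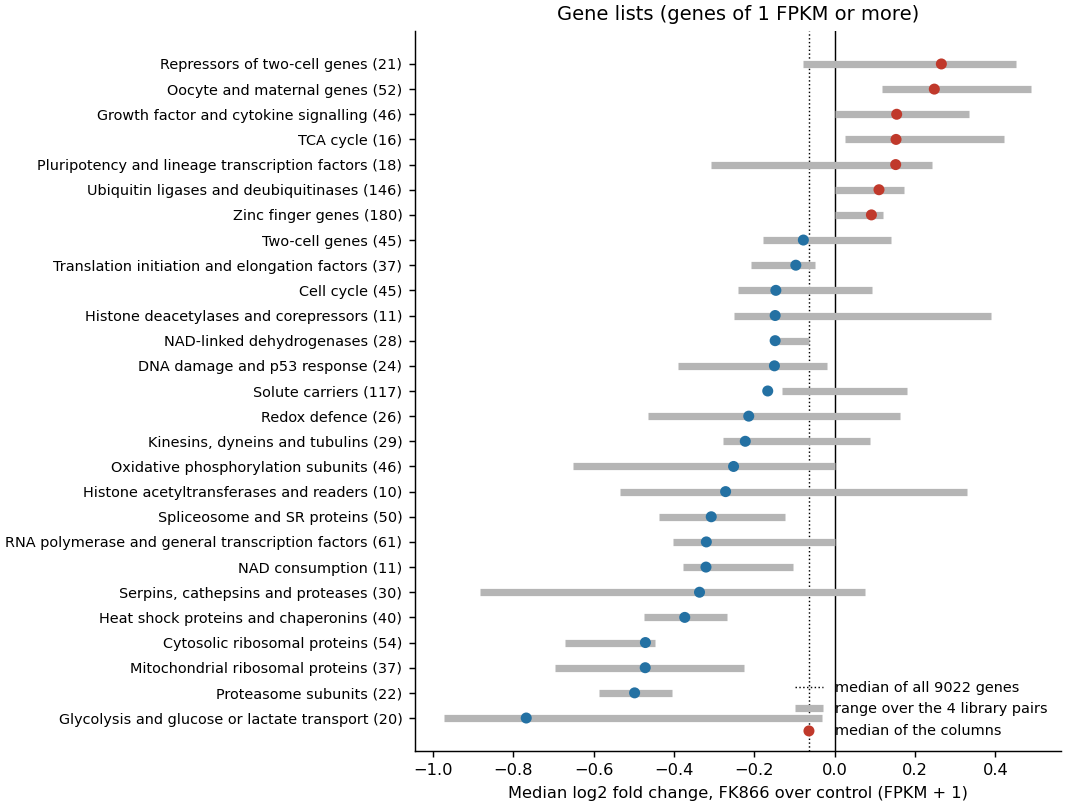
Median log2 fold change of FK866 over control for gene lists with 10 or more expressed genes (number in brackets), red where above 0 and blue where below. Lists of olfactory and vomeronasal receptors, ion channels, cytochrome P450 genes and ribosomal protein pseudogenes are not drawn. Grey bars span the 4 library pairs. The dotted line is the median of all 9022 genes, -0.06; the bars of cytosolic and mitochondrial ribosomal proteins, proteasome subunits, heat shock proteins, spliceosome and NAD consumption genes lie wholly below it, and those of oocyte and maternal genes and of the TCA cycle lie above 0.

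Cell division genes split. Of 45 cell cycle genes, 3 (6.67%) were more than 2-fold higher and 8 (17.8%) lower, against 18.1% and 20.0% of all genes. Their median was -0.15 (0.04 without the smaller control library). Cdc25b, the phosphatase that starts mitosis, measured 3.54 and 6.57 FPKM in the controls and 25.7 and 19.9 with FK866, and the germ cell cyclin Ccna1 0 against 7.66 and 3.89. Cdca8, of the chromosomal passenger complex, measured 145 and 132 against 58.9 and 71.9. Of 24 genes of the response to DNA damage, 2 (8.33%) were more than 2-fold higher and 4 (16.7%) lower. Chek2, a checkpoint kinase, measured 59.5 and 58.1 FPKM against 16.9 and 25.6, and the stress genes Gadd45a (227 and 105 FPKM against 66.0 and 69.0) and Gadd45b (79.2 and 115 against 33.1 and 51.7) also lay below both controls. Its relative Chek1 measured 20.1 and 25.0 against 42.9 and 42.6. Among 26 redox genes, 5 (19.2%) were more than 2-fold higher and 3 (11.5%) lower. Gss, the last enzyme of glutathione synthesis, measured 13.4 and 8.73 FPKM against 1.96 and 2.85.

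Genes that set histone acetylation showed few differences past 2-fold, in small lists. Of 11 expressed histone deacetylase and corepressor genes none was 2-fold higher or lower by column, against 18.1% and 20.0% of all genes. Hdac1 measured 31.8 and 17.5 FPKM in the controls and 23.5 and 20.7 with FK866. Of 10 acetyltransferases and readers none was more than 2-fold higher and 1 (10%) was lower. This was Hat1, which acetylates new histones, at 16.7 and 5.66 FPKM against 2.51 and 3.79. Among 18 pluripotency and lineage factors 3 (16.7%) were more than 2-fold higher and 2 (11.1%) lower. Prdm14 was 2-fold apart, at 7.11 and 5.06 FPKM against 0 and 0.19. Klf17 measured 426 and 434 FPKM against 276 and 463.

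Large families scattered to both sides. Of 180 zinc finger genes 45 (25.0%) were more than 2-fold higher and 33 (18.3%) lower, against 18.1% and 20.0% of all genes. Of the 177 separated, 11 (6.21%) and 5 (2.82%) were 2-fold apart, against 3.88% and 4.28% of all separated genes. Zfp873 measured 0.53 and 0.60 FPKM in the controls and 8.53 and 7.55 with FK866, and Zfp583 was lower, at 9.45 and 11.0 against 3.30 and 0.12. Of 46 growth factor and cytokine genes 13 (28.3%) were more than 2-fold higher and 7 (15.2%) lower. Of the 45 separated, 5 (11.1%) and 0 were 2-fold apart. Bmp2k, a kinase induced by BMP2, measured 5.37 and 9.51 FPKM against 37.6 and 23.9, and the interleukin receptor Il23r 0 against 6.55 and 3.86. Of 117 solute carriers 22 (18.8%) were higher and 27 (23.1%) lower, near the shares of all genes. Slc25a25, a mitochondrial ATP and phosphate carrier, measured 33.9 and 40.3 FPKM against 12.9 and 11.8. Of 146 ubiquitin ligase and deubiquitinase genes 21 (14.4%) were higher and 18 (12.3%) lower. The substrate receptor Fbxw9 measured 22.4 and 18.6 FPKM against 1.62 and 4.18, and Fbxw23, annotated as a transcribed pseudogene, 36.1 and 5.72 against 89.5 and 77.3. Of 36 olfactory and vomeronasal receptor genes 13 (36.1%) were higher and 12 (33.3%) lower, and of 33 ion channel genes 13 (39.4%) and 8 (24.2%). Both lists lay near the floor, with median control levels of 1.30 and 1.42 FPKM.

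Because replicates of abundant genes were closer, the genes of 50 FPKM or more that were 2-fold apart were also read, a choice made after their values were seen. There were 18 higher and 51 lower, given without a share because all genes of this level were not counted. At a mean of 20 to 100 FPKM, 26 of 1474 separated genes (1.76%) were 2-fold apart and higher and 59 (4.00%) lower. At 100 FPKM or more these were 5 (1.28%) and 9 (2.31%) of 390. The shares over all separated genes were 3.88% and 4.28%. Fmn2, the formin that moves the spindle in the oocyte, measured 9.76 and 10.0 FPKM in the controls and 50.8 and 55.5 with FK866. Rbpms2, an RNA-binding protein of oocytes, measured 99.3 and 101 against 275 and 279, and Tfap2e, an AP-2 transcription factor, 55.0 and 57.6 against 136 and 132. Mff, the receptor for mitochondrial fission, measured 27.8 and 29.5 FPKM against 69.1 and 68.9, and Oog2, an oogenesin, 32.2 and 17.4 against 83.9 and 81.5. For Fmn2, Rbpms2, Tfap2e and Mff the libraries of a group lay close together. That the groups lay apart follows from the rule that chose these genes. Their limma adjusted p was 0.385, 0.385, 0.424 and 0.470. In the column with NMN beside FK866 the level per library was 99.4 FPKM for Fmn2, 459 for Rbpms2, 234 for Tfap2e, 52.3 for Mff and 85.5 for Oog2. Others of the 18 were far lower there: Gm9701 measured 0.14 FPKM per library with NMN against 105 with FK866 alone and 1.18 in the control column, Klk1b28-ps 3.45 against 87.7 and 0, and Rps19-ps7 13.0 against 182 and 18.4. Nrbf2 (41.5 against 79.6 and 26.5) and Depdc7 (68.4 against 128 and 47.9) lay between.

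The abundant genes that were lower include Rbm38, an RNA-binding protein of the p53 pathway, at 474 and 516 FPKM in the controls and 165 and 206 with FK866. Timm10, a chaperone of mitochondrial import, measured 99.1 and 42.4 FPKM against 11.9 and 7.09. Crnkl1, a splicing factor, measured 56.3 and 55.1 against 10.6 and 14.9, and Rars, the arginine transfer RNA synthetase, 62.3 and 45.6 against 15.1 and 2.40. Factors of ribosome assembly were among them: Ltv1 measured 64.9 and 61.5 FPKM against 27.7 and 12.3, and Rrp9 72.6 and 84.0 against 30.7 and 30.2. The metallothioneins Mt1 (281 and 300 FPKM against 129 and 121) and Mt2 (61.5 and 82.1 against 29.0 and 27.6) were lower while Mt4 was higher.

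The direction of a gene went with its level in early 2-cell embryos, in libraries that the comparison did not use. Among protein-coding genes of 5 FPKM or more, the 142 listed below 0.1 FPKM at the early stage had a median log2 fold change of -0.73. Of these, 10 (7.04%) were more than 2-fold higher and 53 (37.3%) lower, against 11.7% and 14.9% of all such protein-coding genes. The 296 genes at 100 FPKM or more at the early stage had a median of 0.15. There, 33 (11.1%) were higher, near the share of all, and 12 (4.05%) lower. Bins between them ran in order, at -0.49, -0.26, -0.05 and 0.07. For the lowest bin the median was negative in each of the 4 library pairs (-0.90 to -0.39), and for the highest it was positive in each (0.07 to 0.19). Genes not yet present at the early stage thus tended to be lower with FK866. Abundant early genes had a slightly positive median and were less often lower, but not more often higher. These are counts and medians with no test.

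**Figure D5:**
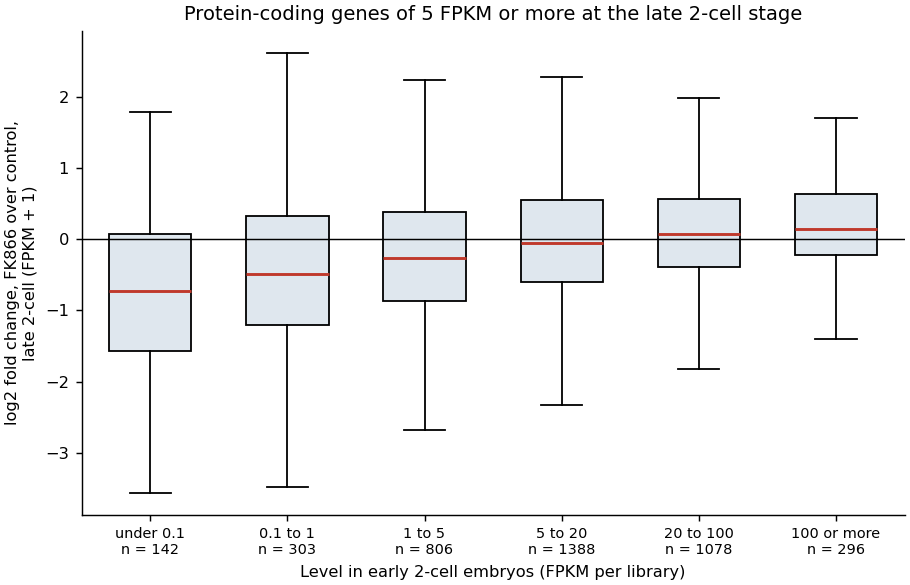
Log2 fold change of FK866 over control at the late 2-cell stage for protein-coding genes of 5 FPKM or more, by their level in early 2-cell embryos. Boxes span the quartiles, red lines are medians, whiskers reach 1.5 times the box and farther points are not drawn; the medians run from -0.73 on the left to 0.15 on the right.

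Exon length moved with the result too. Protein-coding genes of 5 FPKM or more with under 1000 bases of exon had a median of -0.34 (147 genes), those of 1000 to 2000 bases -0.20, those of 2000 to 4000 bases -0.14 and longer ones 0.04 (1923 genes). Ribosomal protein genes are short. Processed pseudogenes as a class, 909 of them, had a median of -0.39. Of these, 126 (13.9%) were more than 2-fold higher and 216 (23.8%) lower, against 18.1% and 20.0% of all genes. The part of length, of RNA integrity and of developmental timing in these values was not tested. In embryos taken whole, fewer cells that express a gene and less RNA in each cannot be told apart.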

How the data were processed

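RNA-seq libraries of mouse embryos were made by the authors from 3 embryos each, with cDNA amplified by PCR. Per the labels and the study's methods, reads were processed with CASAVA 1.4 and HISAT2 against mm10, counted per gene with featureCounts and deposited as FPKM, in 1 column per group that adds its 2 libraries; the strand setting is not given in the sources used here. The table ends within chromosome 11, and its last, incomplete line was dropped. Columns were assigned by their headers. In a table of the study that gives values by group, 117, 118 and 117 of 118 genes had the value of the column so headed for late 2-cell control, FK866 and FK866+NMN (relative tolerance 1e-05), while some 4-cell values stand under other headers; those columns were not used, and the early 2-cell header could not be checked. Column values were halved. With GENCODE M21 exon lengths, each value was resolved into whole reads of a larger and a smaller library, which carry no replicate numbers; 97.7% of control and 97.5% of FK866 values above 0 were separated. Log2(FPKM + 1) was tested with limma 3.58.1 (trend, Benjamini-Hochberg), as the values are not counts; the scripts were tested on simulated data. Named genes were the first 20 in each direction, 2-fold apart at 5 FPKM or more, without symbols of predicted genes, clones or pseudogenes (Mrgprb13, a pseudogene by annotation, passed this rule on symbols), plus list members 2-fold apart, Sirt1 and Duxf3; others are examples for a list's range. Members and lists were chosen with earlier results of these data known. Python 3.11.15, pandas 2.3.3 and R 4.3.3 were used. Values of some single genes are not reported here.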

Additional observations from a re-analysis of the deposited data

How the results depend on the processing

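The limma test called 0 genes under every setting tried: a pseudocount of 0.1 or 5, no filter or one at 5 FPKM, voom, each library left out, and 4 groups sharing 1 spread. Genes more than 2-fold apart by column numbered 433 higher and 553 lower with a pseudocount of 5, and 722 and 893 at a minimum of 5 FPKM, against 1636 and 1800. Genes with libraries 2-fold apart numbered 89 higher and 116 lower with a pseudocount of 5, and 189 higher at a minimum of 5 FPKM, against 334 and 368; these settings weigh low genes less or drop them. With one library left out, which is a laxer rule, the counts 2-fold apart were 654 to 994 higher and 825 to 1153 lower, and the counts by column 1411 to 2428 higher and 1478 to 2352 lower. The median of a list turned sign or reached 0 under some setting for 17 of 31 lists, among them mitochondrial ribosomal proteins without the smaller control library (0.06) and 2-cell genes without the larger one (0.20); the cause was not tested. Proteasome genes kept their sign but reached -0.06 without the smaller control library, and cytosolic ribosomal proteins, at -0.64 to -0.41 over the left-out libraries, centring and both pseudocounts, were steadier. No paired analysis was possible because the separated libraries carry no replicate numbers. At 1 FPKM a 1 kb gene has few reads per library, so its fold change rests on few counts.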
